A study of Mus musculus with 2 samples.

Results

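Endothelial cells are specified and kept by a small set of transcription factors, and 9 of them were followed here in primary cultures of aortic vascular smooth muscle cells (VSMCs), in which a few endothelial cells persist. The 9 genes, taken from the 31053 genes of the files by their symbols, were the SoxF factors *Sox7*, *Sox17* and *Sox18*, the ETS factors *Erg*, *Fli1* and *Etv2*, the basic helix-loop-helix factor *Tal1*, the lymphatic homeobox factor *Prox1* and the orphan nuclear receptor *Nr2f2* (COUP-TFII). They were compared between 3 classes of cells, namely endothelial cells (ECs), cells rich in the smooth muscle myosin *Myh11* and cells with little or none of it, and then among the ECs.

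The study profiled VSMCs from the thoracic aortae of wild type mice of a C57BL6/N background by single-cell RNA sequencing after 5 days in full medium (DMEM with fetal calf serum). There was 1 condition and 1 genotype, without transgene or treatment, in 2 libraries, biological replicates 1 and 2. Several aortae were pooled for a cell preparation, the study used mice of both sexes, and the age of these mice is not given in the sources used here. Freshly isolated cells were not analysed here, so that the values describe what the ECs expressed on day 5, and a change during culture cannot be read from them.

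A barcode was kept as a cell if it held 300 or more genes, 3000 or more unique molecular identifiers (UMIs, each a counted RNA molecule) and under 20% mitochondrial UMIs. This left 4866 and 6824 cells with medians of 22234.5 and 16310 UMIs in replicates 1 and 2. ECs were cells with at least 2 UMIs in at least 2 of *Pecam1*, *Cdh5*, *Cldn5* and *Gja4*, and none of the 9 factors was used to choose them. They were 102 of 4866 cells (2.10%, exact 95% binomial interval 1.71 to 2.54%) and 141 of 6824 cells (2.07%, 1.74 to 2.43%). The *Myh11* ≥5 cells, with 5 or more *Myh11* UMIs, were 473 and 879, and the *Myh11* ≤1 cells were 3954 and 5362. The other 337 and 442 cells, with 2 to 4 *Myh11* UMIs, were in none of these classes. ECs were shallower, with medians of 14629 and 10250 UMIs, against 25667 and 21018 in *Myh11* ≥5 cells and 21979 and 15639.5 in *Myh11* ≤1 cells. The libraries shared 9 barcodes among all cells and 0 among ECs.

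The label EC was checked against 15 endothelial genes outside the gate, of which all 15 were higher in ECs than in *Myh11* ≤1 cells and all 15 were higher than in *Myh11* ≥5 cells, with a median log2 fold change of 7.49 and 7.84 (medians of all genes tested, -0.03 and -0.03). Of all genes tested, 9.76% and 9.44% were called higher. Genes such as *Robo4*, with 45 UMIs in ECs and 1 UMI in each other class, entered the test through the ECs, which in effect fixed their direction. The label thus rests on levels and not on the count of calls. The summed level of the 15 genes was 4515 and 4600 CPM (UMIs per 1000000 UMIs of the class) in ECs, against 80.5 to 115 CPM in the other classes. The ECs also held RNA of smooth muscle genes. The sum of 7 such genes was 2788 and 1969 CPM in ECs, 22596 and 22857 CPM in *Myh11* ≥5 cells and 6136 and 3367 CPM in *Myh11* ≤1 cells, and 40 and 30 ECs had 10 or more UMIs of *Acta2* and *Tagln* together. The part of droplets with a pair of cells or of free RNA in this was not tested, and a factor's level in the other ECs is given where it was over 1.5 times that in all ECs.

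SoxF factors bind DNA through a high-mobility-group domain and switch on genes of the endothelial lineage, ETS factors bind the GGAA core found in many endothelial enhancers, and Tal1 works with Gata and Lmo2 proteins in the endothelial and blood lineages. Within the endothelium, Sox17 acts with Notch signaling in arteries, Nr2f2 opposes Notch and sets the venous state, and Prox1, which Sox18 and Nr2f2 help to switch on, sets the lymphatic state. Etv2 opens the endothelial program for a short time in the embryo and is then shut off.

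The genes lie at 9 loci of GRCm38, with gene bounds from the GENCODE annotation M21. *Sox17* spans 4490931 to 4497354 of chromosome 1 and *Prox1* 190118035 to 190170714 of the same chromosome, both on the minus strand. *Sox18* lies on chromosome 2 from 181669836 to 181671640 (minus), *Tal1* on chromosome 4 from 115056426 to 115071755 (plus), *Sox7* on chromosome 14 from 63943673 to 63950732 (plus), *Erg* on chromosome 16 from 95359169 to 95586593 (minus) and *Fli1* on chromosome 9 from 32422204 to 32542861 (minus). Chromosome 7 holds *Etv2* from 30633616 to 30635852 and *Nr2f2* from 70351944 to 70366735, both minus. *Prox1* overlaps *Prox1os* and *Gm28172* on the other strand, and *Fli1* overlaps *Gm27201*. These 3 overlapping genes, which the files count, had 1 UMI in all ECs together and 0 UMIs in the other classes.

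Promoter sequence was at hand for 5 of the 9 genes, *Erg*, *Tal1*, *Prox1*, *Nr2f2* and *Etv2*, from RefSeq on GRCm38.p6. The 250 bases before the first listed start are shown for the 4 of them that were expressed, because motifs of the same factor families can be looked for in them, with capitals for each match on either strand to 1 of 4 motifs. The letters searched were GGAAG for the core site of the ETS factors. For the Sox factors they were ACAAT, a short form of their binding site. For the Gata factors that work with Tal1 the letters were AGATAA. For COUP-TF, the family of Nr2f2, the nuclear receptor letters AGGTCA were searched. They lie at chr16:95586594-95586843 (minus strand) for *Erg*, chr4:115056176-115056425 (plus) for *Tal1*, chr1:190170828-190171077 (minus) for *Prox1* and chr7:70366747-70366996 (minus) for *Nr2f2*, and are written 5′ to 3′ on the strand of the gene.
*Erg*: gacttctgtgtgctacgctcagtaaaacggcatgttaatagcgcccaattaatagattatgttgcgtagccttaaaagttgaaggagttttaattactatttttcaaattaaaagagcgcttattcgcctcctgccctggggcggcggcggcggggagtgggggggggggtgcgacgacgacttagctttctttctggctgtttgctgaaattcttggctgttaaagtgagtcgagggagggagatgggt
*Tal1*: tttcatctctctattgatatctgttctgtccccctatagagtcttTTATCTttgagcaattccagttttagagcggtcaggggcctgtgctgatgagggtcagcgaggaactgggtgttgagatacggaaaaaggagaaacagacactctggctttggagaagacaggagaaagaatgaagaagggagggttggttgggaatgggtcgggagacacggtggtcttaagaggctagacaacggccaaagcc
*Prox1*: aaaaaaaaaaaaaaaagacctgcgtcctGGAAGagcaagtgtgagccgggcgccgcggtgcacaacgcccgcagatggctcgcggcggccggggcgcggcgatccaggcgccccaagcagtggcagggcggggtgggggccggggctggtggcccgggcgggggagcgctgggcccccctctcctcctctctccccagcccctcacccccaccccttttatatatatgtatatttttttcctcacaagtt
*Nr2f2*: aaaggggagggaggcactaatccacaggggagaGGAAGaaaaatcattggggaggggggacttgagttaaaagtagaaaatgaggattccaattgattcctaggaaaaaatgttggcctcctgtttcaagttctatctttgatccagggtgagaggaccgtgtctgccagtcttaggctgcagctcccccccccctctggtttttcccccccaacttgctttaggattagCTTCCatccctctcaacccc
The first start of *Erg* held none of the 4 motifs, that of *Tal1* held 1 GATA match, that of *Prox1* 1 ETS match and that of *Nr2f2* 2 ETS matches. Among 32851 promoters of this length, 64.1% held the ETS letters, 27.7% the SOX letters, 9.99% the GATA letters and 14.0% the COUP-TF letters, so that an ETS match is common. The third listed start of *Erg* held 1 match to each of the 4 motifs. These matches describe letters only, and counts from the 3′ end of an RNA do not show which start was used.

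Of the 9 factors, 8 had UMIs in the ECs of both libraries and passed the filter on low counts, and *Etv2* did not. Of these 8, 7 were higher in ECs than in *Myh11* ≤1 cells and 7 were higher in ECs than in *Myh11* ≥5 cells (edgeR, adjusted p under 0.05 over 13226 genes), while 9.76% and 9.44% of all genes tested were called higher in these comparisons. Called lower were 0 of the 8 in either (6.52% and 8.11% of all genes tested). Only *Erg*, *Fli1* and *Nr2f2* had enough UMIs outside ECs to be called lower. The exception in both was *Nr2f2*. The 7 calls held in each of 17 alternative fits, in which their adjusted p was at most 0.0268 and 0.0236. Of the same 8 factors, 0 passed the test between *Myh11* ≥5 and *Myh11* ≤1 cells, where 1.85% of genes were called higher and 0.423% lower, 2.28% in either direction, and 1 factor (*Sox7*) had an unadjusted p under 0.05. DESeq2 also called 0 of them. *Sox7*, *Sox17*, *Sox18*, *Tal1* and *Prox1* had only 0 to 6 UMIs in *Myh11* ≥5 cells and passed the filter through the ECs. The comparison of the smooth muscle classes thus bears on *Erg*, *Fli1* and *Nr2f2* alone. In the EC comparisons the filter in effect fixed the direction of the other factors as higher in ECs. Their calls and p-values there, also those given below, do not test that direction. The shares of all genes likewise bear on *Erg*, *Fli1* and *Nr2f2* alone. The same limit on direction holds for genes of the lists used here that had few UMIs outside ECs. Both EC comparisons share the ECs, so that the second is not independent of the first. A level in ECs reflects RNA per cell and the mix of ECs in the culture, which cannot be told apart in a sum over cells.

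**Figure D1:**
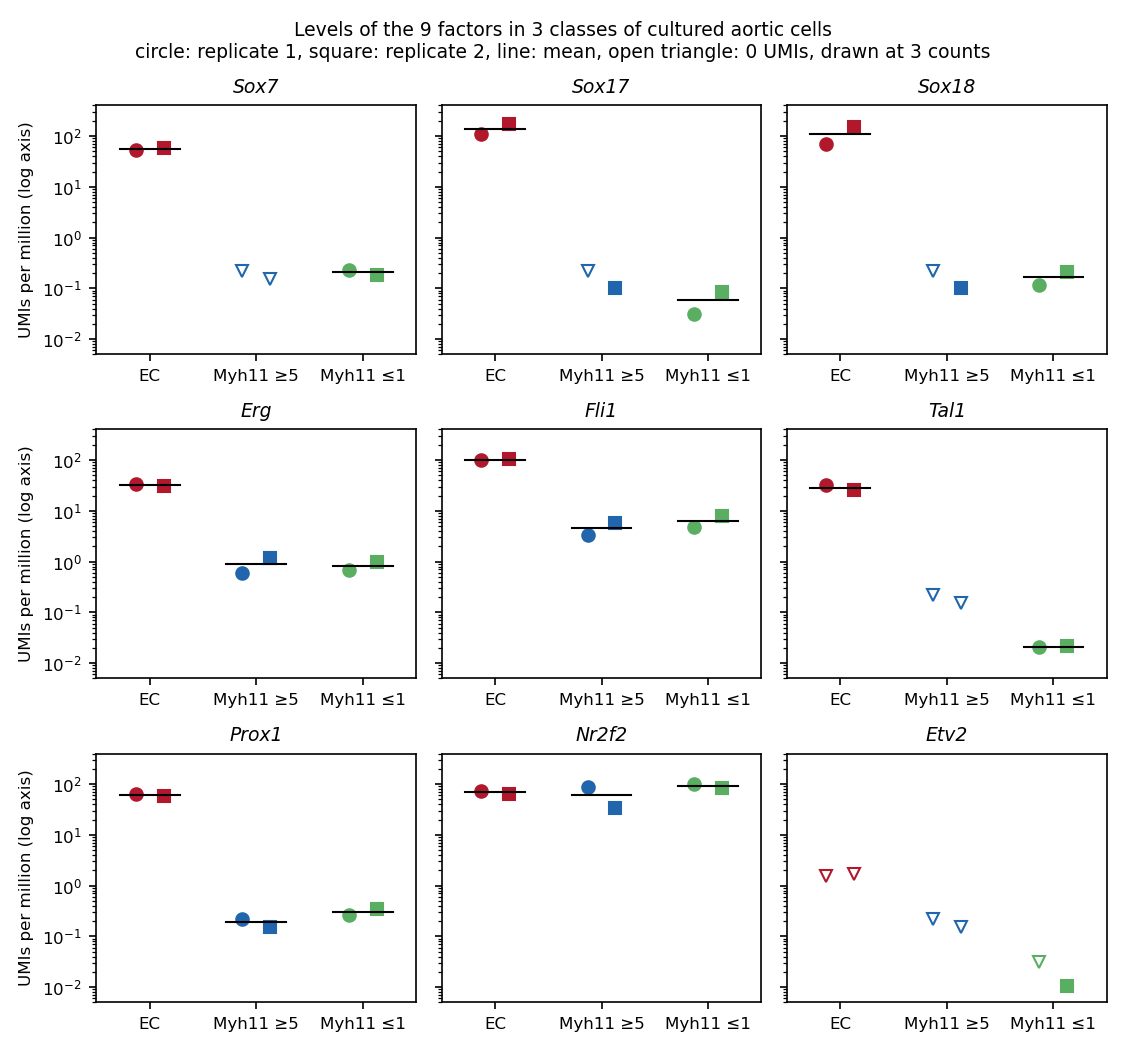
Level of each of the 9 factors in CPM on a log axis in ECs (red), *Myh11* ≥5 cells (blue) and *Myh11* ≤1 cells (green). Circles are replicate 1, squares replicate 2, the line is their mean where both have UMIs, and open triangles are libraries with 0 UMIs, drawn at the level of 3 counts. *Sox7*, *Sox17*, *Sox18*, *Tal1* and *Prox1* sit at or below 0.341 CPM in the *Myh11* ≥5 and *Myh11* ≤1 cells, *Erg* and *Fli1* lie between 0.598 and 8.03 CPM there, and *Nr2f2* is at a like height in all classes.

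*Sox7*, a SoxF factor of developing endothelium, was at 52.5 and 58.3 CPM in ECs of replicates 1 and 2 (55.4 ± 4.08, SD, n = 2). It was at 0.230 and 0.181 CPM in *Myh11* ≤1 cells and had 0 UMIs in both libraries of *Myh11* ≥5 cells. The levels in ECs were thus far above those of both other classes, without overlap. The log2 fold change over *Myh11* ≤1 cells was 7.96 (standard error 0.28, adjusted p = 0.000221 from edgeR). Over *Myh11* ≥5 cells the level was at least 604-fold higher, taking 3 counts over both libraries as the floor (adjusted p = 0.000348 from edgeR). A *Sox7* UMI was found in 54.9% of ECs of replicate 1 (exact 95% interval 44.7 to 64.8%) and 42.6% of those of replicate 2 (34.3 to 51.2%), against 0.556% and 0.317% of *Myh11* ≤1 cells. In *Myh11* ≥5 cells it was found in 0 of 473 and 0 of 879 cells, which allows shares of cells with a UMI of up to 0.634% and 0.341%.

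*Sox17*, the SoxF factor of arterial endothelium, was at 111 and 169 CPM in ECs (140 ± 41.3, SD, n = 2). It was at 0.0314 and 0.0852 CPM in *Myh11* ≤1 cells, where it had 11 UMIs in all, and at 0 and 0.103 CPM in *Myh11* ≥5 cells, with 2 UMIs. The gap between the classes exceeded the spread between the libraries by far. The log2 fold change over *Myh11* ≤1 cells was 11.06 (standard error 0.51, adjusted p = 0.000169 from edgeR) and became 11.78 without replicate 2 of those cells. The pooled ratio to *Myh11* ≥5 cells was 2267, with a counting interval of 624 to 18769 that rests on the 2 UMIs there. *Sox17* UMIs were in 63.7% (53.6 to 73.0%) and 63.1% (54.6 to 71.1%) of ECs, and in at most 0.228% of the cells of any other class and library.

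*Sox18*, which acts in angiogenic and lymphatic endothelium, was at 69.8 and 154 CPM in ECs (112 ± 59.3, SD, n = 2), the widest spread between libraries among the 9 factors. It was at 0.115 and 0.213 CPM in *Myh11* ≤1 cells and at 0 and 0.103 CPM in *Myh11* ≥5 cells. The level in ECs of replicate 2 was higher, while the shares of ECs with a UMI were 69.6% (59.7 to 78.3%) and 68.8% (60.5 to 76.3%). The ECs of replicate 2 were shallower, however, which lowers their share. Thinned to 3000 UMIs per cell, the shares were 24.1% and 37.4%, so that replicate 2 was higher by share too. The log2 fold change over *Myh11* ≤1 cells was 9.29 (standard error 0.60, adjusted p = 0.000545 from edgeR) and 8.62 without the ECs of replicate 2. The pooled ratio to *Myh11* ≥5 cells was 1794 (counting interval 493 to 14865, 2 UMIs).

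Counted by cell, 93 of 102 ECs (91.2%) and 132 of 141 ECs (93.6%) had a UMI of at least 1 SoxF factor, against 0 and 0.455% of *Myh11* ≥5 cells and 0.835% and 0.709% of *Myh11* ≤1 cells. All 3 SoxF factors were found in 30.4% and 18.4% of ECs. *Sox18* was in 76.8% and 73.3% of ECs with a *Sox7* UMI and in 60.9% and 65.4% of ECs without one. The ECs with *Sox7* were deeper in both libraries. Thinned to 3000 UMIs per cell, the shares were 23.4% and 39.2% with *Sox7* against 25.0% and 36.0% without, so that the direction differed between the libraries. The SoxF factors thus covered nearly every EC together, while each alone left many ECs without a UMI. Thinned to 3000 UMIs per cell, the mean share of ECs with a UMI was 16.7% for *Sox7*, 32.3% for *Sox17* and 30.8% for *Sox18*, so that the shares depend strongly on depth.

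**Figure D2:**
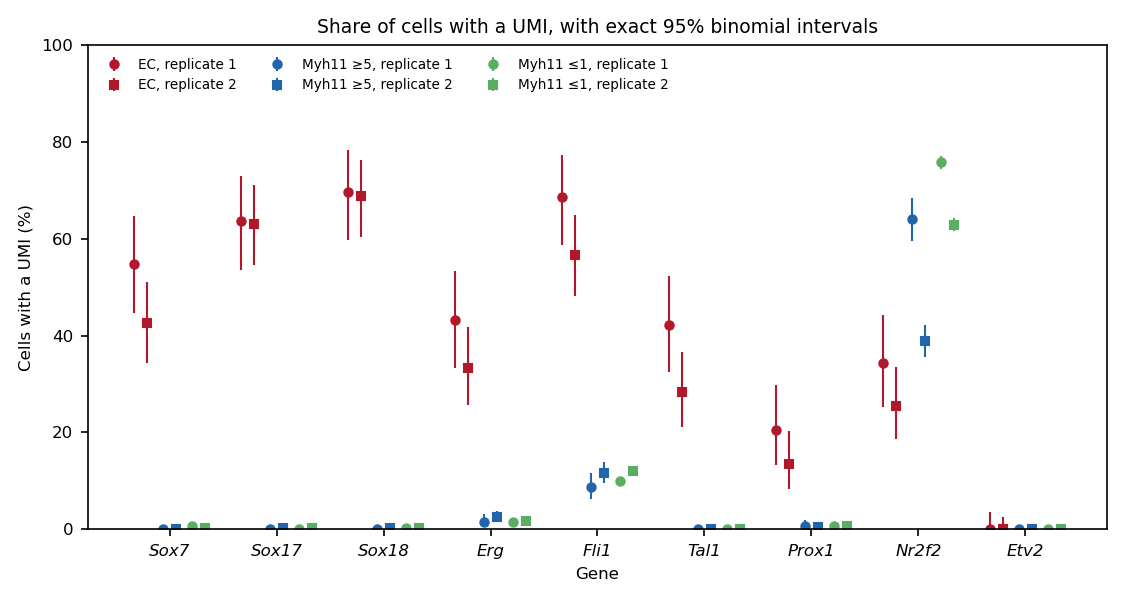
Share of cells with a UMI of each factor, in percent, with exact 95% binomial intervals that cover counting error only. Colours mark the class and symbols the replicate. For 7 factors the ECs stand above the other classes, for *Nr2f2* they stand below, from 25.5 to 34.3% against 38.8 to 75.9%, and *Etv2* is at 0% in ECs.

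*Erg*, an ETS factor that keeps the endothelium quiescent and its junctions closed, was at 34.1 and 30.8 CPM in ECs (32.5 ± 2.33, SD, n = 2). It was at 0.598 and 1.18 CPM in *Myh11* ≥5 cells and at 0.669 and 0.991 CPM in *Myh11* ≤1 cells. ECs were above both classes in both libraries. The log2 fold change was 5.20 over *Myh11* ≤1 cells (standard error 0.38, adjusted p = 0.000808 from edgeR) and 5.00 over *Myh11* ≥5 cells (standard error 0.40, adjusted p = 0.00125). The latter was 4.60 without replicate 1 and 5.58 without replicate 2 of the *Myh11* ≥5 cells. In ECs with fewer than 10 *Acta2* and *Tagln* UMIs the level of *Erg* was 56.4 and 34.0 CPM. *Erg* UMIs were in 43.1% (33.4 to 53.3%) and 33.3% (25.6 to 41.8%) of ECs, and in 1.42 to 2.50% of the cells of the other classes.

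*Fli1*, the ETS factor closest to *Erg*, which also acts in blood and mesenchymal cells, was at 101 and 103 CPM in ECs (102 ± 1.39, SD, n = 2). Its level was 3.36 and 5.76 CPM in *Myh11* ≥5 cells and 4.75 and 8.03 CPM in *Myh11* ≤1 cells. It had the smallest excess in ECs of the 7 factors called, with log2 fold changes of 3.91 (standard error 0.34, adjusted p = 0.00156 from edgeR) and 4.32 (standard error 0.36, adjusted p = 0.00139) over *Myh11* ≤1 and *Myh11* ≥5 cells. *Fli1* UMIs were in 68.6% (58.7 to 77.5%) and 56.7% (48.1 to 65.0%) of ECs, and in 8.67 and 11.6% of *Myh11* ≥5 cells and 9.86 and 12.0% of *Myh11* ≤1 cells. *Erg* or *Fli1* was found in 80.4% and 69.5% of ECs.

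*Etv2*, the embryonic ETS factor, had 0 UMIs in the 102 and 141 ECs, which allows shares of cells with a UMI of up to 2.94% and 2.13% and levels of up to 1.53 and 1.71 CPM. It had 0 UMIs in *Myh11* ≥5 cells of both libraries and 1 UMI in the 3954 and 5362 *Myh11* ≤1 cells together. Among 18 other ETS genes, 15 were tested and 5 were higher in ECs in both comparisons, namely *Elf1*, *Elf2*, *Elk3*, *Ets1* and *Ets2*, and 0 were lower (8 higher than in *Myh11* ≥5 cells with the library as a block). Of all genes tested, 9.76% and 9.44% were called higher and 6.52% and 8.11% lower. *Elk3*, a repressor of the ternary complex group, was at 137 and 125 CPM in ECs against 32.4 and 39.4 CPM in *Myh11* ≤1 cells. *Ets1*, an ETS factor of activated endothelium, was at 86.6 and 65.7 CPM against 14.0 and 18.1 CPM. *Spi1*, the ETS factor of macrophages, had 0 UMIs in ECs.

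The level outside ECs was read against 8 endothelial genes taken as references (*Tie1*, *Emcn*, *Mmrn2*, *Robo4*, *Esam*, *Vwf*, *Cd93* and the gate gene *Pecam1*). Free RNA from ECs alone would put all genes at 1 like share of their EC level. The reference genes did not hold 1 share but lay between 0 and 2.93% over the classes and libraries, so that they give a range only. In *Myh11* ≤1 cells these genes were at a median of 0.0986% and 0.135% of their level in ECs, with a highest value of 1.01% and 1.04% for *Mmrn2*. *Sox7*, *Sox17*, *Sox18*, *Tal1* and *Prox1*, at 0.0284 to 0.585%, lay within the range of the reference genes. For *Sox7* and *Prox1* this rests on *Mmrn2* alone, since the other reference genes reached only 0.220% (*Cd93*) and 0.218% (*Esam*). *Sox7*, at 0.438% and 0.311%, and *Prox1* were above each of those others in both libraries. *Prox1* was at 0.404% and 0.585%, and its 0.261 and 0.341 CPM stood against 1.04 and 0.228 CPM in barcodes with 1 to 100 UMIs, taken as free RNA. *Fli1* was at 4.68% and 7.77% of its EC level and *Erg* at 1.96% and 3.21%, both above all 8 reference genes. In *Myh11* ≥5 cells *Fli1*, at 3.31% and 5.58%, was again above all 8. *Erg*, at 1.75% and 3.84%, was above all 8 in replicate 2 only, since *Esam* reached 2.93% and 2.63%. *Esam* was itself higher in *Myh11* ≥5 than in *Myh11* ≤1 cells (log2 fold change 4.41, adjusted p = 0.0250 from edgeR), so that it is a poor reference there. *Erg* was above each of the other reference genes in both libraries. Macrophages, which express *Fli1*, were looked for among the *Myh11* ≤1 cells. There were 59 and 27 cells with at least 2 UMIs over *Ptprc*, *Csf1r* and *Adgre1*, they held 13 of 454 and 7 of 754 *Fli1* UMIs, and without them the level of *Fli1* was 4.70 and 8.01 CPM. The free-RNA barcodes held *Fli1* at 7.53 and 9.81 CPM and *Erg* at 0.519 and 1.37 CPM. All 8 reference genes were also found in these barcodes, such as *Cd93* at 3.64 and 3.42 CPM. In *Myh11* ≤1 cells *Cd93* was at 0.22% and 0.17% of its EC level. How much of a level in free RNA enters the counts of a class was not tested. Comparing *Fli1* with free RNA thus cannot show where the *Fli1* UMIs came from. The part of free RNA in the UMIs of any of these factors was not tested.

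**Figure D3:**
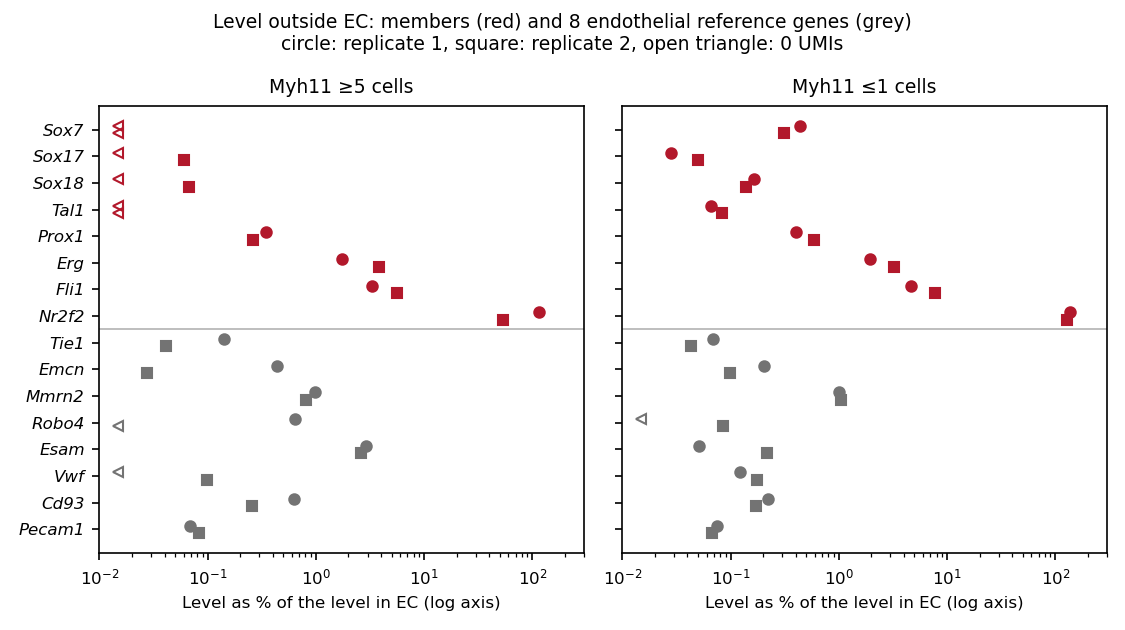
Level in *Myh11* ≥5 cells (left) and *Myh11* ≤1 cells (right) as a percent of the level in ECs of the same library, on a log axis, for 8 factors (red) and 8 endothelial reference genes (grey). Circles are replicate 1, squares replicate 2 and open triangles at the left edge libraries with 0 UMIs. *Fli1* lies to the right of all reference genes in both panels, and *Nr2f2* lies from 53.8 to 136%.

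*Tal1*, which pairs with E proteins such as Tcf3 and binds Lmo2 and Gata factors, was at 31.6 and 25.7 CPM in ECs (28.6 ± 4.17, SD, n = 2). It had 2 UMIs in each library of *Myh11* ≤1 cells, or 0.0209 and 0.0213 CPM, and 0 UMIs in *Myh11* ≥5 cells. It was thus nearly absent from the counts outside ECs. The log2 fold change over *Myh11* ≤1 cells was 10.10 (standard error 0.41, adjusted p = 0.00035 from edgeR), and the level was at least 315-fold higher than in *Myh11* ≥5 cells (adjusted p = 0.000747 from edgeR). In ECs with fewer than 10 *Acta2* and *Tagln* UMIs its level was 49.5 and 27.9 CPM. *Tal1* UMIs were in 42.2% (32.4 to 52.3%) and 28.4% (21.1 to 36.6%) of ECs.

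Of 7 genes listed as hemogenic and blood partners of *Tal1*, 6 were tested and 4 were higher in ECs in both comparisons, and 0 were lower (9.76% and 9.44% of all genes tested were called higher). *Lyl1* among them had 0 UMIs in *Myh11* ≥5 cells and passed the filter through the ECs, so that its calls test no direction. *Lmo2*, the bridging protein of the Tal1 complex, was at 256 and 271 CPM in ECs against 1.30 and 2.25 CPM in *Myh11* ≤1 cells. *Gata2*, the Gata factor of endothelium and blood progenitors, was at 65.2 and 62.8 CPM against 1.44 and 0.980 CPM, and *Lyl1*, the closest relative of *Tal1*, at 37.2 and 37.7 CPM against 0.0523 and 0.0639 CPM. *Gata1*, the partner of *Tal1* in red cells and platelets, had 0 UMIs in every class. *Runx1*, the factor of hemogenic endothelium, was at 14.3 and 2.28 CPM in ECs and 35.0 and 25.9 CPM in *Myh11* ≤1 cells, which did not pass the test (adjusted p = 0.132 from edgeR) but was called lower with the library as a block (adjusted p = 0.0125). The sum of 5 megakaryocyte and platelet genes was 6.11 and 4.57 CPM in ECs, 2.84 and 1.39 CPM in *Myh11* ≥5 cells and 5.06 and 3.03 CPM in *Myh11* ≤1 cells. That of 7 macrophage genes was 23.4 and 29.7 CPM, 10.5 and 5.45 CPM, and 46.8 and 29.9 CPM in the same order, and *Ptprc*, *Adgre1* and *Fcgr3* among them had 0 UMIs in ECs. The part of these cells in the results was not tested. *Cd14* was higher in ECs in both comparisons, *Cd68* was higher than in *Myh11* ≥5 cells (log2 fold change 3.13, adjusted p = 0.0164 from edgeR) and *Lyz2* was lower than in *Myh11* ≤1 cells.

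Of 9 other endothelial transcription factors, 4 were higher in ECs in both comparisons (9.76% and 9.44% of all genes tested were called higher). *Epas1*, a hypoxia-inducible factor, was at 204 and 192 CPM in ECs against 7.12 and 12.8 CPM in *Myh11* ≤1 cells. *Hhex*, *Bcl6b* and *Nfatc1* were the other 3. *Hhex* and *Bcl6b* were nearly absent outside ECs (log2 fold changes 9.41 and 8.67 over *Myh11* ≤1 cells), so that their calls test no direction. *Foxc1* was lower in ECs than in *Myh11* ≤1 cells, at 57.1 and 70.2 CPM against 89.9 and 112 CPM (adjusted p = 0.0350 from edgeR). *Klf2*, a shear-stress factor, was at 353 and 298 CPM in ECs and 166 and 106 CPM in *Myh11* ≤1 cells, which did not pass the test (adjusted p = 0.0884) but was called higher with the library as a block (adjusted p = 0.00289). With the library as a block the counts over *Myh11* ≤1 cells became 5 higher and 3 lower. Of all 13226 genes tested, 4123 were then called, 2062 of them higher. Of 9 other Sox genes, 7 were tested, and *Sox4*, at 313 and 366 CPM in ECs, and *Sox13*, at 25.5 and 22.3 CPM, were higher in both comparisons. *Sox9*, the factor of cartilage cells, was lower in ECs, at 6.62 and 11.4 CPM, than in *Myh11* ≤1 cells, at 38.6 and 94.9 CPM (adjusted p = 0.0468).

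Genes of endothelial-to-mesenchymal transition, a switch by which ECs take on mesenchymal traits, were mostly not called without the library as a block. The other classes express these genes too. The sum of the 12 was 8804 and 7962 CPM in ECs, 10710 and 9070 CPM in *Myh11* ≤1 cells and 13412 and 12410 CPM in *Myh11* ≥5 cells. A gene that was not called thus says nothing on whether the ECs took on such traits. Of 12 such genes, 1 was higher in ECs than in *Myh11* ≤1 cells (*Zeb1*) and 3 were lower (*Zeb2*, *Snai2* and *Pdgfrb*), with a median log2 fold change of -1.42 against -0.03 for all genes. With the library as a block, 1 was higher and 10 were lower. Of all genes tested, 9.76% were called higher and 6.52% lower without the block. With it, 4123 of 13226 genes were called, 2062 of them higher. Compared with *Myh11* ≥5 cells, 0 were higher and 5 were lower (8 with the block). There, 9.44% of all genes tested were called higher and 8.11% lower, and with the block 3981 were called, 1962 of them higher. *Vim*, an intermediate filament of mesenchymal cells, was at 6213 and 6193 CPM in ECs and at 6019 and 5379 CPM in *Myh11* ≤1 cells, and 8000 and 7505 CPM in *Myh11* ≥5 cells, and was not called, but with the block it was lower than in *Myh11* ≥5 cells (adjusted p = 0.00291 from edgeR).

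*Prox1*, which sets lymphatic identity, was at 64.7 and 58.3 CPM in ECs (61.5 ± 4.57, SD, n = 2). It was at 0.224 and 0.154 CPM in *Myh11* ≥5 cells, with 3 UMIs in each library, and at 0.261 and 0.341 CPM in *Myh11* ≤1 cells. ECs were far above both classes. The log2 fold change was 7.57 over *Myh11* ≤1 cells (standard error 0.25, adjusted p = 6.32e-05 from edgeR) and 8.21 over *Myh11* ≥5 cells (standard error 0.30, adjusted p = 0.000115), and became 8.22 and 8.87 without the ECs rich in *Acta2* and *Tagln*. Without these ECs its level in the others was 118 and 88.1 CPM. *Prox1* UMIs were in 21 of 102 ECs (20.6%, 13.2 to 29.7%) and 19 of 141 ECs (13.5%, 8.31 to 20.2%), the lowest shares among the 8 factors found in ECs.

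These *Prox1* ECs carried several UMIs each, with a median of 5 and 4 and a highest count of 25 in either library. At least 2 *Prox1* UMIs were found in 17 and 13 ECs, but in 1 of 4764 and 1 of 6683 of all other cells. *Prox1* was thus concentrated in a few cells and not spread thinly over many.

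*Nr2f2*, which sets venous identity and is also expressed in mesenchymal cells, was at 74.4 and 64.0 CPM in ECs (69.2 ± 7.38, SD, n = 2). It was at 86.2 and 34.4 CPM in *Myh11* ≥5 cells (60.3 ± 36.6) and at 101 and 81.8 CPM in *Myh11* ≤1 cells (91.6 ± 13.7). ECs lay between the libraries of *Myh11* ≥5 cells and below both libraries of *Myh11* ≤1 cells, and the 2 smooth muscle classes overlapped. In the order of the means, *Myh11* ≤1 cells came first, then ECs, then *Myh11* ≥5 cells. No difference between classes passed the test, with a log2 fold change of *Myh11* ≥5 over *Myh11* ≤1 cells of -0.55 (standard error 0.41, adjusted p = 0.603 from edgeR). That of ECs was -0.50 over *Myh11* ≤1 cells (standard error 0.43, adjusted p = 0.474 from edgeR) and 0.05 over *Myh11* ≥5 cells (standard error 0.43, adjusted p = 0.957). The latter was 0.83 without replicate 1 and -0.49 without replicate 2 of the *Myh11* ≥5 cells, so that its sign depends on 1 library.

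By cell, *Nr2f2* UMIs were in fewer ECs than smooth muscle cells, 34.3% (25.2 to 44.4%) and 25.5% (18.6 to 33.6%), against 64.1% and 38.8% of *Myh11* ≥5 cells and 75.9% and 63.0% of *Myh11* ≤1 cells. Thinned to 3000 UMIs, the shares were 15.1% and 12.2% in ECs, 20.3% and 9.05% in *Myh11* ≥5 cells and 25.1% and 21.6% in *Myh11* ≤1 cells, so that the order of ECs and *Myh11* ≥5 cells turned in replicate 2. The barcodes taken as free RNA held *Nr2f2* at 71.2 and 48.8 CPM. Where an EC had *Nr2f2*, it had several UMIs, with a median of 4 and 2.5. ECs with 10 or more *Acta2* and *Tagln* UMIs had *Nr2f2* in 40.0% and 36.7% of cells and the other ECs in 30.6% and 22.5%, at a level of 57.6 and 44.7 CPM against 95.5 and 74.1 CPM.

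Among the ECs, *Prox1* and *Sox17* were mostly found in different cells. This and the following values describe cells of the same 2 cultures, in groups set by the factors themselves, and carry no test. *Sox17* UMIs were in 5 of 21 *Prox1* ECs (23.8%, 8.22 to 47.2%) and 3 of 19 (15.8%, 3.38 to 39.6%), against 74.1% (63.1 to 83.2%) and 70.5% (61.6 to 78.4%) of ECs without *Prox1*. The share was lower beside *Prox1* in both libraries. The *Prox1* ECs were the deeper ones, with medians of 18203 and 12084 UMIs, and after thinning to 3000 UMIs the shares with *Sox17* were 7.95% and 7.27% in them against 32.9% and 41.5%.

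*Nr2f2* went with *Prox1*. It was in 19 of 21 (90.5%, 69.6 to 98.8%) and 16 of 19 (84.2%, 60.4 to 96.6%) *Prox1* ECs, against 19.8% (11.7 to 30.1%) and 16.4% (10.3 to 24.2%) of the rest. Its level was 153 and 239 CPM in *Prox1* ECs, but 31.0 and 17.8 CPM in ECs with *Sox17* and without *Prox1*. The latter was below the level of *Nr2f2* in free RNA, and the part of free RNA in it was not tested. In the 21 and 36 ECs with neither *Prox1* nor *Sox17*, *Nr2f2* was in 38.1% and 25.0% of cells, at 101 and 71.7 CPM. *Nr2f2* was thus not confined to *Prox1* ECs. *Nr2f2* UMIs were also in 18.5% and 13.5% of *Sox17* ECs, against 62.2% and 46.2% of ECs without *Sox17*.

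**Figure D4:**
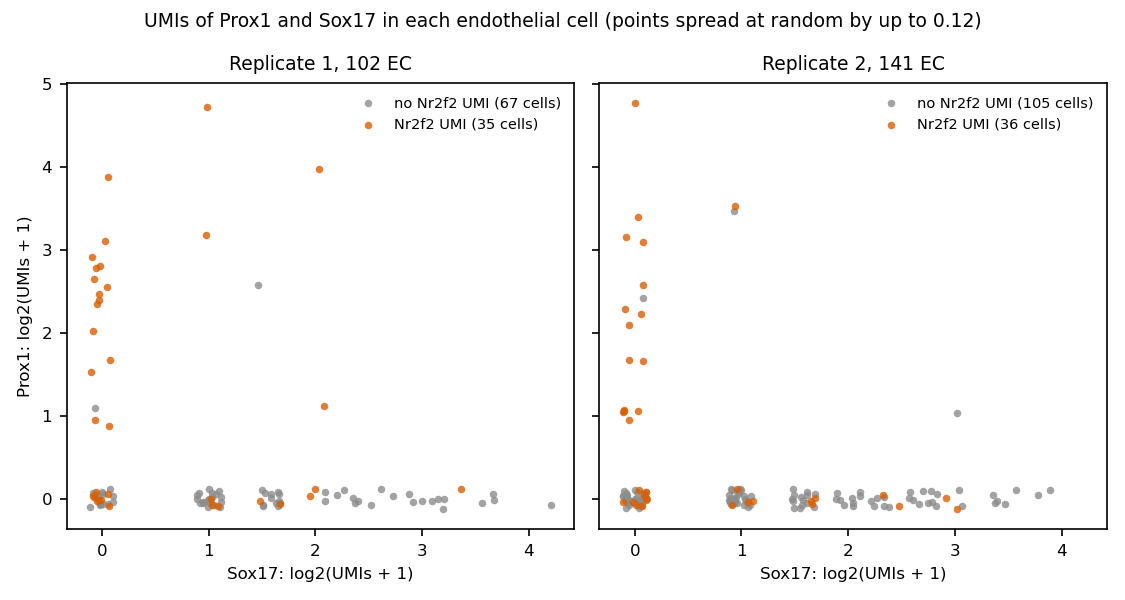
UMIs of *Sox17* (x axis) and *Prox1* (y axis) in each EC as log2(UMIs + 1), with points spread at random by up to 0.12 and coloured by *Nr2f2*. Cells with *Prox1* lie mostly along the left edge and are mostly orange (*Nr2f2* found), and cells with many *Sox17* UMIs lie along the bottom and are mostly grey.

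The other factors were shared by both groups, in *Prox1* ECs and in the 60 and 86 ECs with *Sox17* and without *Prox1*. *Sox18* was in 81.0% and 94.7% of the former and 70.0% and 62.8% of the latter, *Tal1* in 47.6% and 42.1% against 43.3% and 26.7%, and *Sox7* in 42.9% and 36.8% against 63.3% and 43.0%. The *Prox1* ECs were deeper, which raises their shares. By level, *Sox18* was lower in them in replicate 1 (50.3 against 78.9 CPM) and higher in replicate 2 (236 against 135 CPM). *Tal1* was at 29.0 and 34.2 CPM against 29.2 and 24.3 CPM. *Sox7* was lower in both libraries, at 29.0 and 34.2 CPM against 63.8 and 61.7 CPM. *Fli1* was at 147 and 243 CPM in *Prox1* ECs and at 92.2 and 76.7 CPM in *Sox17* ECs, higher in both libraries, and *Erg* was at 15.5 and 26.6 CPM against 45.2 and 32.7 CPM, lower in both. Genes of the gate were present in both groups because every EC was chosen by them, so that their presence is no result. Their levels could differ, with *Cdh5* at 279 and 505 CPM in *Prox1* ECs against 618 and 588 CPM.

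Of the 14 arterial genes, 11 were lower in *Prox1* ECs than in *Sox17* ECs in both libraries and 0 were higher in both, while 29.2% of the 13226 genes tested above were lower and 22.9% higher in both. *Hey1*, *Jag1* and *Unc5b* kept no direction. *Gja5*, an arterial connexin, was at 0 and 11.4 CPM in *Prox1* ECs, 75.3 and 73.9 CPM in *Sox17* ECs and 50.5 and 55.0 CPM in the 21 and 36 ECs with neither factor. *Dll4*, the arterial Notch ligand, was at 0 and 3.80 CPM, 62.9 and 55.2 CPM, and 31.6 and 81.2 CPM in the same order. *Nrp1*, the arterial neuropilin, was at 52.2 and 49.4 CPM, 231 and 216 CPM, and 158 and 210.3 CPM. Arterial genes were thus also found in ECs with neither factor. Of the venous genes, *Nrp2*, the neuropilin of veins and lymphatics, was at 159 and 141 CPM in *Prox1* ECs against 15.9 and 16.8 CPM, and *Ephb4* and *Ackr1* were also higher in both libraries, the latter on 1 and 2 UMIs, whereas *Selp* went the other way, at 32.9 and 34.2 CPM against 228 and 197 CPM.

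Of the 8 lymphatic genes, 4 were higher in *Prox1* ECs in both libraries, *Flt4*, *Foxc2*, *Mmrn1* and *Reln* (the last on 4 and 2 UMIs), and 0 were lower in both. Of all genes tested above, 22.9% were higher and 29.2% lower in both libraries. *Foxc2*, a factor of lymphatic valves, barely differed, at 50.3 and 68.4 CPM against 46.1 and 52.4 CPM. *Mmrn1*, a multimerin of lymphatic endothelium, had 16 and 10 UMIs in *Prox1* ECs (30.9 and 38.0 CPM) and 0 UMIs in all other ECs. *Flt4*, the receptor of lymphatic growth factors, was at 48.4 and 72.2 CPM against 40.8 and 29.9 CPM. *Lyve1* was found in 4 of 21 *Prox1* ECs of replicate 1 (44.5 CPM) and in 0 of 19 of replicate 2. *Pdpn* was at 71.6 and 7.60 CPM against 33.7 and 21.5 CPM, and *Ccl21a* had 0 UMIs. *Itga9* was at 83.2 and 26.6 CPM against 33.7 and 36.5 CPM. *Lyve1*, *Pdpn* and *Itga9* thus differed between the libraries. The *Prox1* ECs of replicates 1 and 2 also differed in smooth muscle RNA, with *Acta2* at 2410 and 72.2 CPM and *Tagln* at 1458 and 133 CPM. The part of this RNA in the levels of *Prox1* ECs was not tested. *Plvap*, a gene of fenestrated and venous endothelium outside the lymphatic list, was at 679 and 882 CPM in *Prox1* ECs against 85.9 and 124 CPM.

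**Figure D5:**
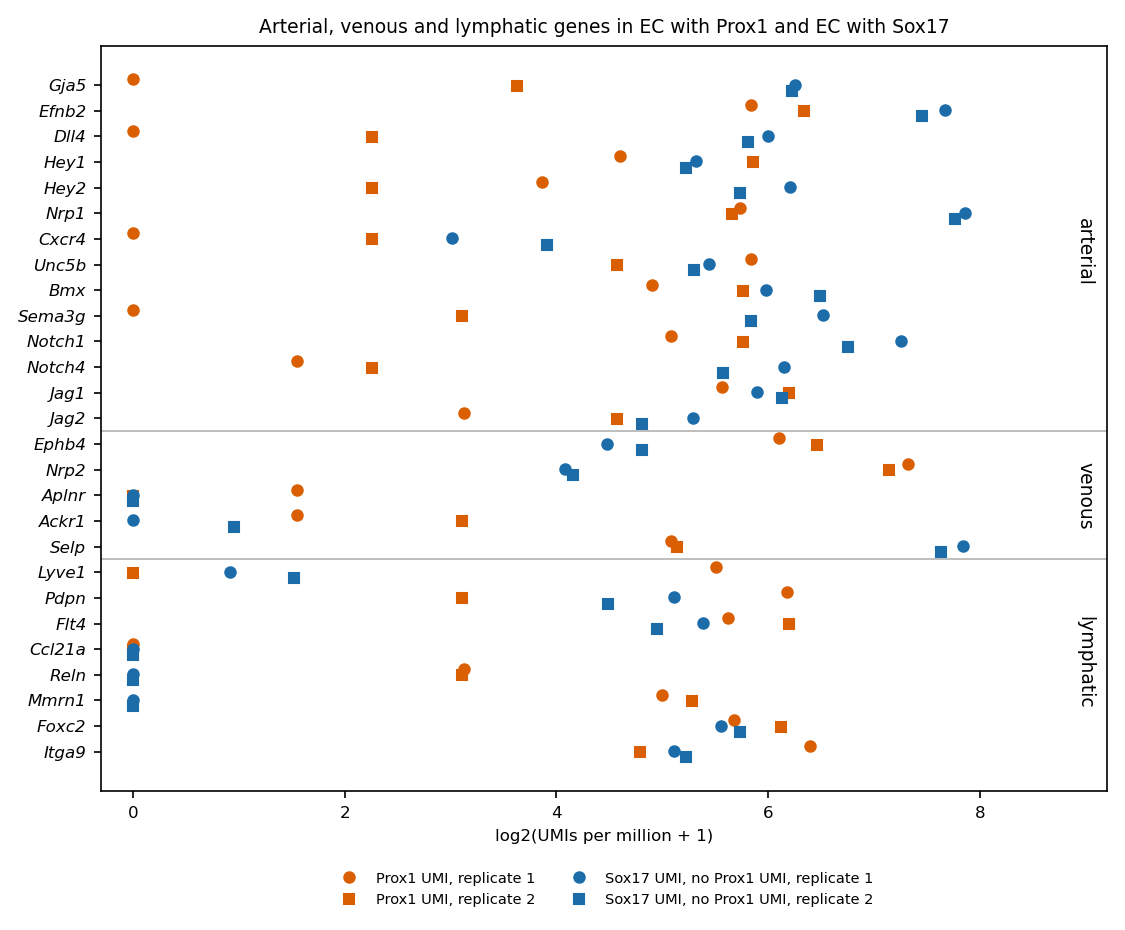
Levels of 14 arterial, 5 venous and 8 lymphatic genes as log2(CPM + 1) in ECs with a *Prox1* UMI (orange, 21 and 19 cells) and ECs with a *Sox17* UMI and no *Prox1* UMI (blue, 60 and 86 cells). Circles are replicate 1 and squares replicate 2. Most arterial genes lie further right in blue, and *Nrp2*, *Ephb4*, *Mmrn1* and *Reln* lie further right in orange.

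The same lists were then read over all ECs. Of 14 arterial genes, 10 were higher in ECs than in *Myh11* ≤1 cells and 9 were higher than in *Myh11* ≥5 cells (12 and 11 with the library as a block), 0 were lower in these comparisons (1 and 0 with the block), and *Nrp1*, *Jag1*, *Hey2* and *Unc5b* were called in neither without the block. *Gja4*, an arterial connexin, is part of the EC gate, which can favour arterial cells. Of the 5 venous genes, 3 were tested and 3 were higher in both comparisons. Of the 8 lymphatic genes, 6 were tested and 3 were higher than in *Myh11* ≤1 cells (*Mmrn1*, *Itga9* and *Flt4*) and 2 than in *Myh11* ≥5 cells (*Mmrn1* and *Flt4*), and 0 were lower. *Mmrn1* had 0 UMIs in both smooth muscle classes and passed the filter through the ECs, so that its calls test no direction. The same limit holds for *Flt4*, with log2 fold changes of 7.70 over *Myh11* ≤1 and 9.91 over *Myh11* ≥5 cells. It also holds for arterial genes nearly absent outside ECs, such as *Dll4* (10.11 and 9.39). The counts of these lists thus test a direction only for genes with enough UMIs outside ECs. Of all genes tested, 9.76% and 9.44% were called higher and 6.52% and 8.11% lower in these comparisons. With the block, *Pdpn* was lower in ECs than in *Myh11* ≤1 cells (adjusted p = 0.0144 from edgeR). The difference between these lists was not tested.

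By the distance of log2(CPM + 1) over the 6 sums of library and class, the 3 nearest genes were found for each of the 8 factors. *Sox17* lay nearest to *Tie1*, *Adgrl4* and *Sox18* (distances 0.496, 0.651 and 0.698), and *Sox18* nearest to *Sox17*, *Tie1* and *Fgd5*. *Sox7* lay nearest to *Sele*, *Afap1l1* and *Cyyr1*, *Erg* to *Pkn3*, *Sox13* and *Kit*, *Tal1* to *Neurl3*, *Arhgef15* and *Ushbp1*, and *Prox1* to *Afap1l1*, *H2-Q7* and *Podxl*. *Fli1* lay farther from its neighbours *Gadd45a*, *Gngt2* and *Ltbp4* (0.915, 0.960 and 1.07), and *Nr2f2* lay nearest to *Prnp*, *Med13l* and *Cyth3*. These 6 sums share 2 libraries, so that closeness mostly reflects a like contrast between ECs and the other classes.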

How the data were processed

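Libraries of 2 cultures were made with the 10x Genomics 3′ v3 chemistry. The deposited matrices hold raw UMI counts per gene and barcode, which the authors made with Cell Ranger and the mouse genome mm10. The labels and the file header of replicate 1 give version 3.0.2, and that of replicate 2 gives 3.1.0. The count totals were 127949633 and 132561822 UMIs, and 30934 of 31053 gene identifiers matched GENCODE M21.

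Counts of the cells of a class were summed per library, which gave 6 sums (3 classes, 2 libraries), since cells are not replicates. The sums were tested in 1 fit with the quasi-likelihood test of edgeR 4.0.16 in R 4.3.3 (TMM, filterByExpr) with Benjamini-Hochberg adjustment over 13226 genes at a threshold of 0.05. Levels are UMIs per 1000000 UMIs of the class (CPM). The standard error of a log2 fold change is that change over the square root of F. Shares have exact (Clopper-Pearson) 95% binomial intervals, and a count of 0 allows 3 counts. Intervals and floors cover counting error only. Shares thinned to 3000 UMIs per cell are expected values. No doublet caller was run and doublets were kept, and ECs with at least 2 *Myh11* UMIs (5 and 3) were left out in an alternative. Python 3.11.15, SciPy 1.17.1 and DESeq2 1.42.0 served for the rest and for alternatives.

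The replicate number pairs sums, since both come from 1 culture. Deviations of same-numbered sums correlated at r = 0.303 (ECs and *Myh11* ≥5 cells), 0.342 (ECs and *Myh11* ≤1 cells) and 0.654 (both smooth muscle classes) across genes. With 2 libraries, p-values measure the spread between these 2 cultures. In simulated counts, 4-fold changes were recovered in 66% of genes for ECs over *Myh11* ≤1 cells (13157 genes), 72% for ECs over *Myh11* ≥5 cells (13180 genes) and 90% between the smooth muscle classes (13188 genes), and 2-fold changes in 2%, 10% and 14%.

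The 9 factors, the gene lists and the tests were chosen with earlier results of these data known. All 9 factors were named, along with 2 to 4 genes of each list with the highest level in ECs and genes that went against their list, and the 3 genes nearest to each factor. Other list genes given with values (*Lyl1*, *Ets1*, *Runx1*, *Gja5*, *Dll4*, *Lyve1*, *Pdpn* and others) and *Plvap* in *Prox1* ECs were chosen after their values were seen.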

Additional observations from a re-analysis of the deposited data

Results flagged for a closer look

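Barcodes that met the EC gate but not the filters on cells were used in no comparison and were 3 in replicate 1 (2 under 3000 UMIs and 1 with 20% or more mitochondrial UMIs) and 6 in replicate 2 (6 under 3000 UMIs). They held 9 *Sox17* UMIs (1 and 8) and 4 *Fli1* UMIs (1 and 3), so that UMIs of these factors were also found in barcodes left out of the classes.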

How the results depend on the processing

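The number of factors called stayed at 7, 7 and 0 in all 17 alternatives of the 3 comparisons, 2 of which were chosen after seeing the data (macrophage-marker cells left out, and ECs with 10 or more *Acta2* and *Tagln* UMIs left out). For *Sox7*, *Sox17*, *Sox18*, *Tal1* and *Prox1* the calls were nearly fixed by their few UMIs outside ECs. The constant number of factors called thus bears on *Erg*, *Fli1* and *Nr2f2* alone. The count of all genes called moved more. For ECs over *Myh11* ≤1 cells it was 2153, and became 1389 with no filter on low counts, 4123 with the replicate block, 3331 without the ECs rich in *Acta2* and *Tagln*, and 611 to 2156 with 1 sum left out. For ECs over *Myh11* ≥5 cells it was 2321, and became 1514 with no filter, 3981 with the replicate block and 731 to 1983 with 1 sum left out. For *Myh11* ≥5 over *Myh11* ≤1 cells it was 301, and became 70 with no filter, 1162 with DESeq2, 2153 with the replicate block, 998 with limits of 10 or more and 0 *Myh11* UMIs, and 81 to 324 with 1 sum left out. A sum left alone in its class was assumed to vary like the others. The replicate block changed no call of the 9 factors.

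Signs turned only among changes that passed no test. *Nr2f2* in ECs over *Myh11* ≥5 cells (0.05 on the log2 scale) became -0.0044 with no filter, -0.17 with a gate of 3 genes and -0.49 to 0.83 with 1 sum left out (below 0 without replicate 1 of the ECs, at -0.10, or replicate 2 of the *Myh11* ≥5 cells). In *Myh11* ≥5 over *Myh11* ≤1 cells, *Sox17* (0.11) became -0.20 with at least 1000 UMIs per cell and -4.33 to 0.89 with 1 sum left out. *Erg* (0.20) became -0.40 to 0.57 with 1 sum left out, and *Fli1* (-0.41) became -0.85 to 0.0027. *Sox17* and *Erg* turned without replicate 1 of the *Myh11* ≤1 cells (-0.39 and -0.03) or replicate 2 of the *Myh11* ≥5 cells, and *Fli1* without replicate 2 of the *Myh11* ≤1 cells. The cause was not tested. The shallower ECs limit the shares of cells with a UMI, which fell with thinning to 3000 UMIs.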
